A study of Mus musculus with 6 samples.

Results

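The genes described here are 9 genes through which B cells are held in, leave and return to lymphoid tissue: the chemokine receptors Cxcr4, Cxcr5 and Ccr7, the sphingosine-1-phosphate (S1P) receptors S1pr1 and S1pr4, the oxysterol receptor Gpr183, the cannabinoid receptor Cnr2, the integrin subunit gene Itga4 and the transcription factor gene Klf2. They were taken by symbol from a table of 27761 genes, and each symbol matched 1 row. The table gives messenger RNA levels of mouse bone marrow B220+ cells in 6 libraries, 3 with the genotype label PELI2 knockout, titled PELI2-CKO and called PELI2-CKO-labelled libraries here, and 3 with the label WT. Values are in FPKM, which scales reads by transcript length and by the reads mapped in the library. The Cre driver, strain, age and number of animals were not given in the sources used here, and nothing says that the replicates are separate animals, so p-values measure only the spread between these samples.

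Developing B cells are held in the marrow niche by CXCR4, whose ligand CXCL12 is made by stromal cells, and by adhesion of integrin alpha 4 to VCAM-1. S1PR1 senses the high S1P of blood and directs the exit of immature B cells, CNR2 holds immature B cells within marrow sinusoids, and KLF2 activates the S1pr1 gene in lymphocytes. CXCR5, CCR7 and GPR183 place mature B cells in follicles, at the T cell border and at the follicle edge of spleen and lymph node.

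Klf2 and Cxcr4 had the highest levels of the 9 genes, and their upstream sequences are shown for that reason. Each is the 250 bases before the RefSeq start in build GRCm38.p6, written 5′ to 3′ on the strand of the gene. For Klf2 the gene row itself starts earlier, at 72319033, so the end of its window lies inside that row's span. Capitals mark matches, on either strand, to the MEF2 motif (CTA, any 4 bases, then TAG) or to the CACCC-box motif CCNCNCCC, which KLF and SP factors share.
Klf2, chromosome 8, 72318812 to 72319061, plus strand: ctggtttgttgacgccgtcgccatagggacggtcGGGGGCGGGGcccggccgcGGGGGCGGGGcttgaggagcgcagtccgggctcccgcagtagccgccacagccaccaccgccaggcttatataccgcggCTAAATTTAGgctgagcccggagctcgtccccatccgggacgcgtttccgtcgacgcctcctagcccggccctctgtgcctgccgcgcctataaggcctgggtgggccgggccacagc
Cxcr4, chromosome 1, 128592300 to 128592549, minus strand: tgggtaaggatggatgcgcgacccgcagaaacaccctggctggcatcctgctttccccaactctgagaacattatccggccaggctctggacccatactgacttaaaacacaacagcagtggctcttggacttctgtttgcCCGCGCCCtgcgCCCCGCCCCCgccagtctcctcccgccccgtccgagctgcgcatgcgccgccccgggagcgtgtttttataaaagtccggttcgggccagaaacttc
The Klf2 window held 1 MEF2 match, starting at base 133, a motif found in 3.2% of the 32851 windows of this length, and 4 overlapping or neighbouring CACCC-box matches. The Cxcr4 window held 3 CACCC-box matches, a motif found in 45.9% of windows, and no MEF2 match. No match of a MEF2 motif overlapped a CACCC box in either. The FOXO motif GTAAACA, found in 3.17% of windows, was in none of the 7 windows of the 6 members that had an entry (Cxcr4, Itga4, Cnr2, Klf2, S1pr4 and Gpr183). These matches describe letters and not binding.

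Peli2, the targeted gene, did not separate the groups. It stood at 3.07, 2.70 and 2.47 FPKM in the PELI2-CKO-labelled libraries, against 2.03, 2.54 and 1.99 FPKM in WT. These values rest on about 27 to 330 reads per library, depending on the coding transcript, a counting error of about 19% at the lowest. Gm49307, Gm49310 and Gm6498 overlap Peli2 on the same strand, and the labels do not say which exons are deleted. An exact permutation test of the 0.556 FPKM between the means gave p = 0.2 (two-sided), where 0.1 is the smallest value that 3 libraries a group allow. Directions below are therefore those of the label. The recovered depth was 16600000 to 18100000 reads per library. The B lineage was present in each library, with Cd79a, a chain of the B cell receptor complex, at 488 to 516 FPKM in the PELI2-CKO-labelled libraries and at 583 to 724 FPKM in WT. RNA of other marrow cells was present too: S100a9, a calcium-binding protein of neutrophils, stood at 4307 to 4743 FPKM in the PELI2-CKO-labelled libraries and at 2764 to 3911 FPKM in WT. WT replicate 1 stood apart from the other 5 libraries, with the lowest summed level of 16 neutrophil genes (8028 FPKM, the others 10657 to 14897) and the highest of 15 B lineage genes (3130 FPKM, the others 2141 to 2601). Log2 fold changes of the 9 genes that moved by over 1.5 times without it are given without it too.

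None of the 9 genes passed the test between the groups (limma on log2(FPKM + 1), adjusted p under 0.05 over 12953 genes), where 0.0232% of all tested genes passed. All 9 were above the expression filter. S1pr1 was the only member with an unadjusted p under 0.05, where 18.1% of tested genes had one, and the only member whose groups did not overlap, where 25.8% of tested genes did not. The share of 1 in 9 lies below both. Which members had an unadjusted p under 0.05 varied with the fit. Centred on the B lineage list they were Klf2 and S1pr4, where 7110 of 12953 tested genes had one. With the neutrophil covariate they were Cxcr4, Cxcr5, Gpr183 and Itga4, where 694 of 12953 tested genes had one. With a common total they were Cnr2, Itga4 and S1pr1, where 3054 of 12944 tested genes had one. S1pr1 had one in every fit except the centred fit and the fit with the neutrophil covariate. Means were lower in the PELI2-CKO-labelled libraries for 6 members and higher for 3, with a median log2 fold change of -0.10, beside -0.01 over all tested genes. In these bulk samples, fewer cells of a type and less RNA per cell cannot be told apart.

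**Figure D1:**
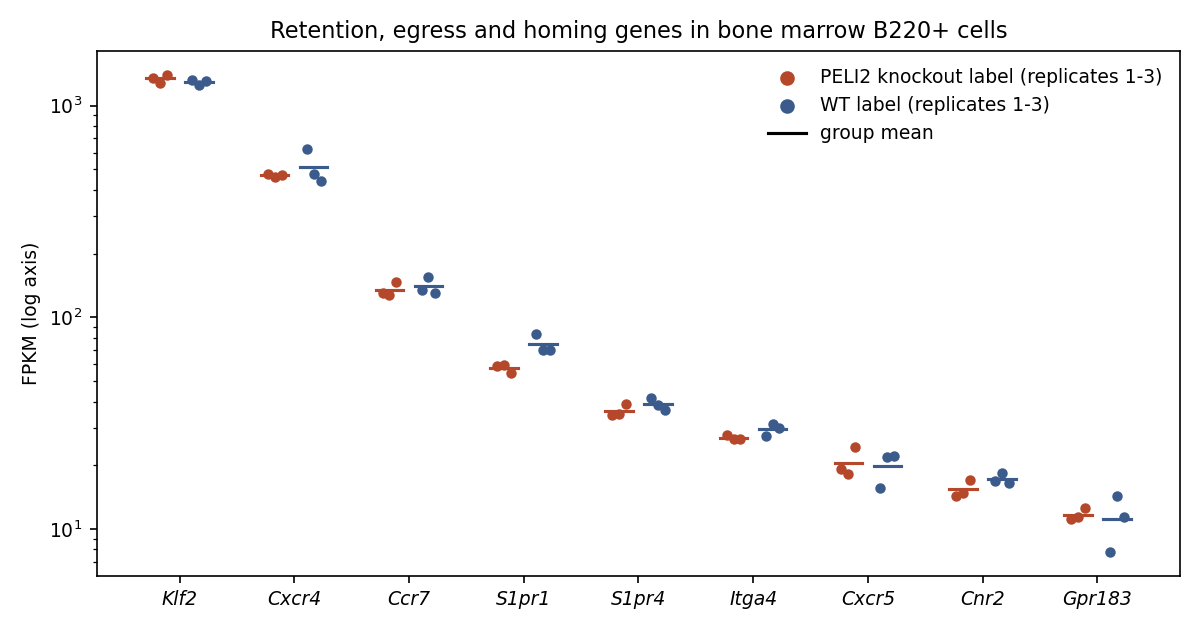
FPKM of the 9 genes on a log axis, with 1 point per library and a line at each group mean, for the PELI2-CKO-labelled libraries (left of each pair) and WT (right). S1pr1 is the member whose groups do not overlap, with 54.6 to 59.6 FPKM in the PELI2-CKO-labelled libraries and 70.1 to 83.6 FPKM in WT.

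FPKM is a level per transcript length, so the genes could be ordered within a library, and the order was nearly the same in each. Klf2 came highest, Cxcr4 next, then Ccr7, S1pr1, S1pr4 and Itga4, and the ranges of neighbours in this part of the order did not overlap over the 6 libraries. Klf2 had a mean level that only 17 tested genes exceeded. Cxcr5 and Cnr2 overlapped in range and stood in this order in 5 of 6 libraries, with WT replicate 1 the exception, and Gpr183 was lowest in each library.

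S1pr1, the S1P receptor of lymphocyte exit (ENSMUSG00000045092, GRCm38 chromosome 3, 115710433 to 115715072, minus strand, 2 exons), had 59.0, 59.6 and 54.6 FPKM in PELI2-CKO-labelled libraries 1 to 3, against 83.6, 70.3 and 70.1 FPKM in WT libraries 1 to 3. Each PELI2-CKO-labelled library was below each WT library. The means were 57.7 ± 2.72 FPKM in the PELI2-CKO-labelled libraries and 74.7 ± 7.74 FPKM in WT (SD, n = 3 each), a ratio of 0.772. The log2 fold change was -0.36 with a standard error of 0.08 and a 95% interval of -0.56 to -0.17 (limma, adjusted p = 0.147), and 295 of 12953 tested genes had an unadjusted p as small or smaller. Its single annotated transcript of 3046 bases drew about 3000 to 4500 reads per library, a counting error of about 1.8% at the lowest, less than the spread between replicates of 4.71% in the PELI2-CKO-labelled libraries and 10.4% in WT. Such errors cover counting only, since PCR copies are not separate molecules. Without WT replicate 1 the log2 fold change was -0.28 (limma, adjusted p = 0.227).

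Most B lineage genes also stood lower. Of 15 B lineage genes 13 had a lower mean in the PELI2-CKO-labelled libraries, and 11 were lower without overlap, where 14.3% of all tested genes were. The median log2 fold change of the list was -0.34, none of its 15 genes passed (limma), and none was listed at 0. Their summed level was 2141 to 2163 FPKM in the PELI2-CKO-labelled libraries and 2492 to 3130 FPKM in WT. Markers of pro-B and pre-B cells stood lower as well, with each of 14 tested genes of 15 at a lower mean, a median log2 fold change of -0.38, none passing (limma) and none at 0. Their summed level was 711 to 718 FPKM in the PELI2-CKO-labelled libraries and 812 to 1065 FPKM in WT. Rag1, a chain of the recombinase of antigen receptor genes, had 59.8, 68.3 and 49.1 FPKM in the PELI2-CKO-labelled libraries, against 119, 82.4 and 70.9 FPKM in WT. Of the 14 tested genes 8, Rag1 among them, were lower without overlap, where 14.3% of all tested genes were. Igll1 and Vpreb1, both at higher levels than Rag1, overlapped between the groups. A list of 15 mature B genes did not stand lower. Its mean log2(FPKM + 1) was 5.55 in the PELI2-CKO-labelled libraries and 5.54 in WT, and the groups overlapped. The part of the pro-B and pre-B list and of the mature B list in S1pr1 was not tested. Relative to the mean of the B lineage list in the same library, S1pr1 was at -0.61 ± 0.06 (log2) in the PELI2-CKO-labelled libraries and -0.53 ± 0.06 in WT (SD, n = 3 each), and these groups overlapped. With each library centred on the B lineage list, the log2 fold change of S1pr1 was -0.08 (limma, adjusted p = 0.361), and centring moved the median of all tested genes by 0.28. All 16 neutrophil genes had a higher mean in the PELI2-CKO-labelled libraries, none was at 0, and their summed level was 12593 to 14897 FPKM there and 8028 to 11138 FPKM in WT. The size differed within the neutrophil list, from a ratio of means of 1.05 (Retnlg) to 3.19 (Ctsg). Of its 16 genes 12 were higher without overlap, where 1487 of 12953 tested genes were. With the mean of that list as a covariate, the log2 fold change of S1pr1 was -0.05 (limma, adjusted p = 0.966), in a fit where the covariate itself separates the groups.

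**Figure D2:**
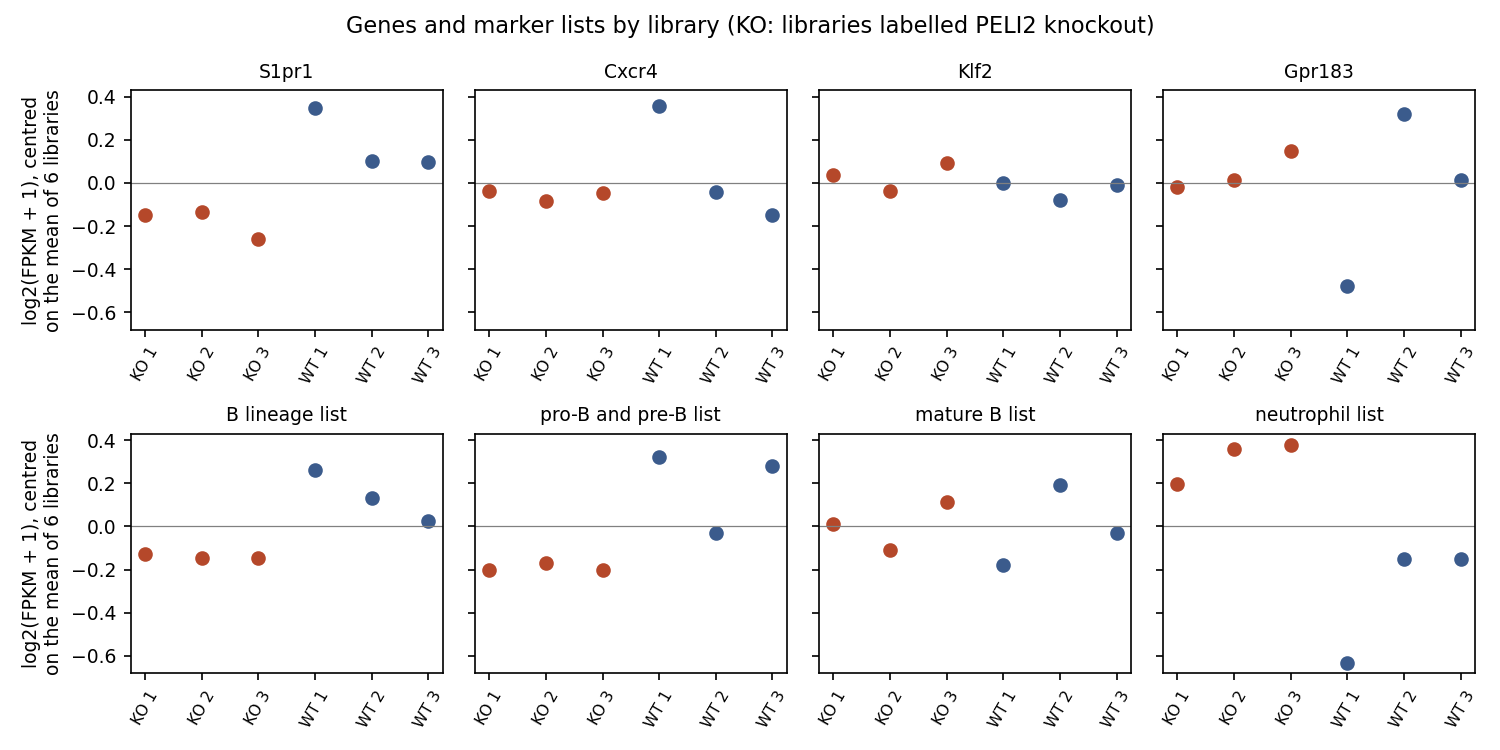
Values of log2(FPKM + 1) for 4 genes (top) and means of 4 marker lists (bottom) in each library, centred on the mean of the 6 libraries. S1pr1 and the B lineage list are lower, and the neutrophil list is higher, in each PELI2-CKO-labelled library (left 3 points) than in each WT library (right 3 points), while Klf2 overlaps between the groups.

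The genes with a profile most like that of S1pr1 over the 6 libraries were Xrcc6, the Ku70 subunit of DNA end joining, Dpp4, a surface peptidase, and Prkce, a protein kinase C. Likeness was the root mean square difference between centred log2(FPKM + 1) profiles, which was 0.02 for Xrcc6, 0.023 for Dpp4 and 0.025 for Prkce among 10677 genes. Xrcc6 stood at 36.2, 37.7 and 34.9 FPKM in the PELI2-CKO-labelled libraries, against 53.8, 44.7 and 44.4 FPKM in WT. Gpr183 was most like Rasgef1b (0.056) and Cxcr5 most like the immediate-early factor gene Egr3 (0.029).

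S1pr4, the S1P receptor found mainly on blood cells (ENSMUSG00000044199, chromosome 10, 81497747 to 81500132, minus strand, 1 exon), had 34.7, 35 and 38.9 FPKM in the PELI2-CKO-labelled libraries, against 41.7, 38.4 and 36.6 FPKM in WT. The groups overlapped, and the log2 fold change was -0.10 with a 95% interval of -0.27 to 0.07 (limma, adjusted p = 0.475). It was -0.05 without WT replicate 1 and 0.18 when centred on the B lineage list. The groups did not overlap after centring, which also moved the median of all tested genes by 0.28. The ratio of S1pr1 to S1pr4 within a library was 1.7, 1.7 and 1.4 in the PELI2-CKO-labelled libraries and 2, 1.83 and 1.92 in WT, so the groups did not overlap in it. S1pr1, the numerator here, was itself apart between the groups.

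Klf2 (ENSMUSG00000055148, chromosome 8, 72319033 to 72321656, plus strand, 3 exons) encodes the factor known to activate S1pr1, and its groups overlapped. It had 1348, 1279 and 1400 FPKM in the PELI2-CKO-labelled libraries, against 1316, 1245 and 1305 FPKM in WT. The log2 fold change was 0.06 with a 95% interval of -0.15 to 0.26 (limma, adjusted p = 0.745), and it turned to -0.02 with a common total and likewise with quantile normalization. Centred on the B lineage list it was 0.34 (limma, adjusted p = 0.0724, between 0.0724 and 0.958 over the 18 alternatives). Relative to that list Klf2 stood at 3.91 ± 0.06 (log2) in the PELI2-CKO-labelled libraries and 3.57 ± 0.12 in WT (SD, n = 3 each), without overlap. In the centred fit 3434 of 12953 tested genes passed as higher, and the median of all tested genes moved by 0.28. The share of all genes without overlap after centring was not counted. The uncentred interval leaves room for a ratio between 0.904 and 1.2. The ratio of Klf2 to S1pr1 within a library was 22.9, 21.5 and 25.7 in the PELI2-CKO-labelled libraries and 15.7, 17.7 and 18.6 in WT, again without overlap. S1pr1, the denominator here, was itself apart between the groups. About 38000 to 47000 reads per library fell on Klf2.

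Cxcr4, the receptor of marrow retention (ENSMUSG00000045382, chromosome 1, 128588199 to 128592293, minus strand), had 474, 459 and 471 FPKM in the PELI2-CKO-labelled libraries, against 624, 473 and 439 FPKM in WT. The PELI2-CKO-labelled libraries lay close together, at a coefficient of variation of 1.77%, and WT replicate 1 alone lay far above them. The log2 fold change was -0.11 with a 95% interval of -0.43 to 0.21 (limma, adjusted p = 0.684), and 0.04 without WT replicate 1. The ratio of Cxcr4 to S1pr1 was 8.04, 7.70 and 8.63 in the PELI2-CKO-labelled libraries and 7.46, 6.72 and 6.26 in WT. The groups did not overlap in it either, and S1pr1 is its denominator.

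Ccr7, the receptor for CCL19 and CCL21 (ENSMUSG00000037944, chromosome 11, 99144196 to 99155077, minus strand, 3 exons), had 130, 128 and 146 FPKM in the PELI2-CKO-labelled libraries, against 135, 155 and 130 FPKM in WT. The log2 fold change was -0.06 with a 95% interval of -0.26 to 0.15 (limma, adjusted p = 0.763), and 0.02 without WT replicate 2. Cxcr5, the receptor for CXCL13 (ENSMUSG00000047880, chromosome 9, 44511787 to 44561877, minus strand), had 19.3, 18.2 and 24.3 FPKM in the PELI2-CKO-labelled libraries, against 15.6, 21.8 and 22.1 FPKM in WT. The means of Cxcr5 were 20.6 ± 3.21 FPKM in the PELI2-CKO-labelled libraries and 19.9 ± 3.66 FPKM in WT (SD, n = 3 each). Its log2 fold change was 0.06 with a 95% interval of -0.32 to 0.43 (limma, adjusted p = 0.872), -0.10 without WT replicate 1 and -0.06 without PELI2_knockout replicate 3. Both receptors overlapped between the groups.

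Gpr183, also called EBI2 (ENSMUSG00000051212, chromosome 14, 121952551 to 121965195, minus strand), had 11.1, 11.4 and 12.6 FPKM in the PELI2-CKO-labelled libraries, against 7.80, 14.3 and 11.4 FPKM in WT. WT varied most here, with a coefficient of variation of 29.1%, and WT replicate 1 was the lowest of the 6. The log2 fold change was 0.10 with a 95% interval of -0.35 to 0.55 (limma, adjusted p = 0.81), and -0.12 without WT replicate 1. In WT replicate 1 the list of 15 mature B genes was also lowest, at a mean log2(FPKM + 1) of 5.37, the other libraries lying between 5.44 and 5.74. The part of that list in the low Gpr183 value was not tested. The mature B list overlapped between the groups, with a median log2 fold change of 0.04 and 10 of 15 genes at a higher mean in the PELI2-CKO-labelled libraries. At unadjusted p under 0.05 it had 0 genes above WT and 3 below it (Cd40, Tnfrsf13c and Fcmr), where 9.2% of tested genes were higher and 8.88% lower. None of the list passed (limma).

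Cnr2 (ENSMUSG00000062585, chromosome 4, 135895394 to 135920207, plus strand, 2 exons) had 14.3, 14.8 and 17 FPKM in the PELI2-CKO-labelled libraries, against 16.8, 18.4 and 16.5 FPKM in WT. The groups overlapped through replicate 3 of the PELI2-CKO-labelled libraries, and the log2 fold change was -0.16 with a 95% interval of -0.34 to 0.03 (limma, adjusted p = 0.347), or 0.13 when centred on the B lineage list. Itga4 (ENSMUSG00000027009, chromosome 2, 79255426 to 79333123, plus strand, 28 exons) had 27.7, 26.6 and 26.5 FPKM in the PELI2-CKO-labelled libraries, against 27.5, 31.4 and 29.9 FPKM in WT. Replicate 1 of each group met at the border. Its log2 fold change was -0.13 with a 95% interval of -0.27 to 0.01 (limma, adjusted p = 0.307), or 0.15 when centred on the B lineage list. Its centred values nearly met between the groups without overlap, and centring moved the median of all tested genes by 0.28. Cxcr5, Gpr183 and Itga4 each overlap a gene on the other strand (Bcl9l, Ubac2 and Cerkl). Overlap was judged over whole gene spans, introns included, and strand use in counting is not stated. Whether reads of such pairs were mixed was not tested.

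**Figure D3:**
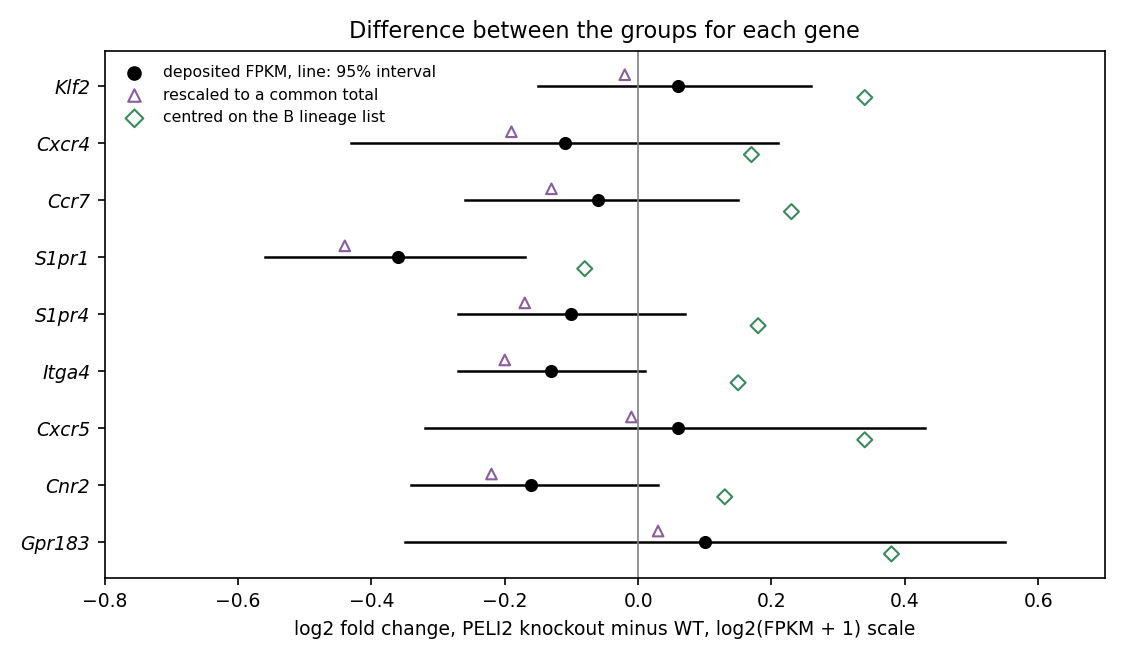
Log2 fold change of each gene, PELI2 knockout minus WT, with its 95% interval (limma), and the same value after rescaling to a common total (triangles) or centring on the B lineage list (diamonds). The interval of S1pr1, -0.56 to -0.17, is the only one that lies below 0, and its value centred on the B lineage list is -0.08.

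The partner chains of integrin alpha 4 stood higher in the PELI2-CKO-labelled libraries, where Itga4 itself had the lower mean. Itgb7, whose chain forms the gut-homing receptor with integrin alpha 4, had 63.7, 56.7 and 58.3 FPKM in the PELI2-CKO-labelled libraries, against 35.8, 50.7 and 47.8 FPKM in WT (log2 fold change 0.42, limma adjusted p = 0.206). Itgb1, whose chain makes VLA-4 with it, had 34.2, 36.6 and 37.8 FPKM in the PELI2-CKO-labelled libraries, against 26.2, 32.2 and 32.5 FPKM in WT (log2 fold change 0.26, limma adjusted p = 0.235). Both were apart between the groups and neither passed. Higher values without overlap were found for 1487 of 12953 tested genes, and for 9 of the 17 tested integrin and other adhesion genes. The ratio of Itga4 to Itgb7 was 0.453 ± 0.0172 in the PELI2-CKO-labelled libraries and 0.671 ± 0.0834 in WT (SD, n = 3 each), and that of Itga4 to Itgb1 was 0.746 ± 0.0575 in the PELI2-CKO-labelled libraries and 0.982 ± 0.0655 in WT. Neutrophil and monocyte lists also stood higher, the monocyte list with 11 of 11 means higher and summed levels of 932 to 1158 FPKM in the PELI2-CKO-labelled libraries and 629 to 890 FPKM in WT, none at 0, and their part was not tested.

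Of 18 integrin and other adhesion genes 17 were tested, and none passed (limma), with 8 above WT and 2 below it at an unadjusted p under 0.05, where 9.2% of tested genes were higher and 8.88% lower. The median log2 fold change was 0.19, or -0.04 with the neutrophil covariate and 0.12 without WT replicate 1. Fn1, fibronectin, a ligand of integrin alpha 4, had 11.4, 12 and 10.8 FPKM in the PELI2-CKO-labelled libraries, against 5.76, 8.38 and 6.23 FPKM in WT (log2 fold change 0.68, limma adjusted p = 0.14). Itgam and Itgal, chains of leukocyte integrins, had log2 fold changes of 0.32 and 0.23, and Itga9 one of -0.32. Vcam1, the main ligand in marrow, had 10.7, 11.6 and 20.0 FPKM in the PELI2-CKO-labelled libraries, against 7.95, 12.9 and 16.8 FPKM in WT. Vcam1 overlapped between the groups.

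Of 13 further genes of the S1P pathway 11 were tested and none passed (limma), with 0 above WT and 1 below it at unadjusted p under 0.05, a share near the 8.88% of all tested genes that were lower. The median was -0.05, or 0.24 when centred on the B lineage list. The lower one was Cd69, whose protein draws S1PR1 off the cell surface. It had 112, 120 and 113 FPKM in the PELI2-CKO-labelled libraries, against 142, 132 and 123 FPKM in WT (log2 fold change -0.20, limma adjusted p = 0.223). Mfsd2b, an S1P exporter of red cells and platelets, averaged 0.34 higher (log2) and Sphk1, an S1P-making kinase, 0.37 higher, with overlapping groups (limma adjusted p = 0.351 and 0.353). The erythroid list also stood higher, with 12 of 12 means higher, summed levels of 13187 to 16608 FPKM in the PELI2-CKO-labelled libraries and 8851 to 13266 FPKM in WT, and none at 0. Its part in Mfsd2b was not tested. S1pr2 stayed under the filter, at 0.665 to 0.780 FPKM in the PELI2-CKO-labelled libraries and 0.404 to 0.676 FPKM in WT.

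Of 19 chemokine ligands and other receptors 15 had a row and 8 were tested. None passed (limma), with 3 above WT and 0 below it at unadjusted p under 0.05, where 9.2% of tested genes were higher and 8.88% lower. The median was 0.26, or 0.05 with the neutrophil covariate, 0.03 with no filter on low values and 0.15 without PELI2_knockout replicate 1. Ccr9, which plasmacytoid dendritic cells also carry, had 12.6, 11.1 and 10.1 FPKM in the PELI2-CKO-labelled libraries, against 8.52, 8.70 and 9.46 FPKM in WT. The 11 genes of the plasmacytoid dendritic cell list, which holds Ccr9, had 9 higher means and a mean log2(FPKM + 1) of 6.02 to 6.24 in the PELI2-CKO-labelled libraries and 5.85 to 5.90 in WT, without overlap. The list had summed levels of 1379 to 1544 FPKM in the PELI2-CKO-labelled libraries and 1356 to 1564 FPKM in WT, and none at 0, and their part was not tested. Cxcr2, a neutrophil receptor, had a log2 fold change of 0.30 and Cxcr3 one of 0.39. Cxcl12, the CXCR4 ligand, was near the floor, at 0.466 to 0.853 FPKM in the PELI2-CKO-labelled libraries and 0.421 to 1.76 FPKM in WT, and Ackr3, a scavenger of CXCL12, at 0.701 to 1.17 FPKM in the PELI2-CKO-labelled libraries and 0.844 to 1.15 FPKM in WT. Cxcl13, Ccl19, Ccl21a and Ccl20 had no row under these symbols, so they were not analysed. Of 11 genes around oxysterols and endocannabinoids 6 were tested, each with a higher mean and a median of 0.15, or -0.03 with the neutrophil covariate and 0.06 with no filter on low values. None passed (limma), with 1 above WT and 0 below it at unadjusted p under 0.05 (9.2% of all tested genes were higher and 8.88% lower), which was Daglb, an enzyme that makes a CNR2 ligand, at a log2 fold change of 0.28. Ch25h, which opens the making of GPR183 ligands, lay at 0.0409 to 0.217 FPKM in the PELI2-CKO-labelled libraries and 0.0836 to 0.178 FPKM in WT.

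Of 38 genes of receptor and adhesion signalling 36 were tested and none passed (limma), with 4 above WT and 3 below it at unadjusted p under 0.05, shares near the 9.2% and 8.88% of all tested genes. The median was 0.02, which turned negative with a common total (-0.05) and with quantile normalization (-0.01) and was 0.00 without WT replicate 1. Grk2, a kinase that desensitizes CXCR4 and S1PR1, had 215, 212 and 207 FPKM in the PELI2-CKO-labelled libraries, against 277, 237 and 231 FPKM in WT (log2 fold change -0.23, limma adjusted p = 0.229). Rgs16 and Rgs2, which speed the turning off of G proteins, had log2 fold changes of -0.40 and -0.22, and Arrb2, an arrestin, one of 0.30.

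All 20 regulators upstream of the 9 genes, or nearest relatives of Klf2, were tested and none passed (limma), with 0 above WT and 5 below it at unadjusted p under 0.05, where 9.2% of tested genes were higher and 8.88% lower. The median was -0.08, or 0.20 when centred on the B lineage list and -0.05 without WT replicate 1. Foxo1, a factor that in T cells is known to act on Klf2, S1pr1 and Ccr7, had 22.6, 24.1 and 20.2 FPKM in the PELI2-CKO-labelled libraries, against 31.7, 29.2 and 25.9 FPKM in WT (log2 fold change -0.36, limma adjusted p = 0.166). Ebf1, Pax5 and Ikzf3, factors of B cell identity, had log2 fold changes of -0.44, -0.38 and -0.37, and Ebf1 and Pax5 are also in the B lineage list. Mef2d and Mef2c, of the family whose motif stands in the Klf2 window, were picked after their values were seen. Mef2d had 115, 110 and 98.1 FPKM in the PELI2-CKO-labelled libraries, against 141, 122 and 114 FPKM in WT, and Mef2c had 12.9, 12.1 and 12.5 FPKM in the PELI2-CKO-labelled libraries, against 12.9, 14.2 and 13.9 FPKM in WT.

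**Figure D4:**
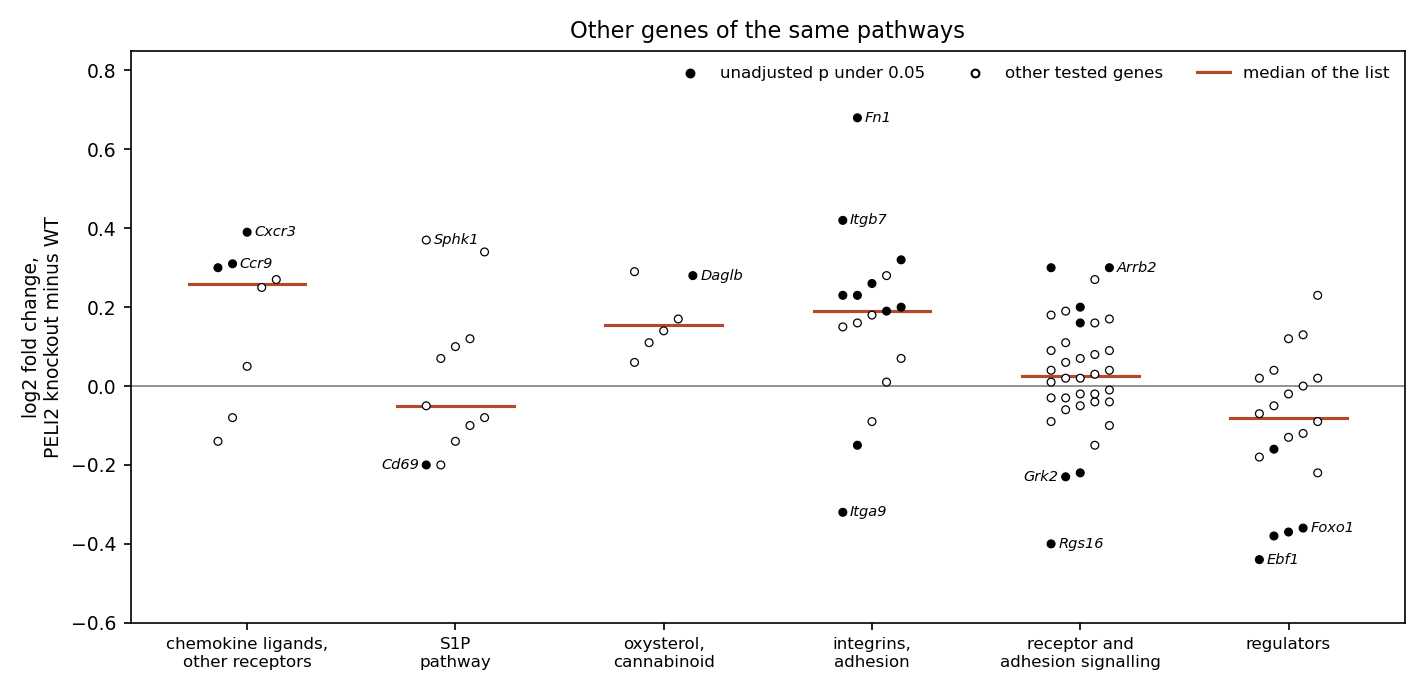
Log2 fold change, PELI2 knockout minus WT, of each tested gene in 6 lists around the 9 genes, with filled points for an unadjusted p under 0.05 and a line at each list's median. Integrin genes lie mostly above 0 (median 0.19, or -0.04 with the neutrophil covariate) and regulators mostly below (median -0.08, or 0.20 when centred on the B lineage list), and none of these genes passed the adjusted threshold.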

How the data were processed

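Total RNA of B220+ cells was enriched for mRNA with oligo(dT) beads and sequenced as single-end reads of 50 bases, per the labels' protocols. The authors deposited 1 table of FPKM per gene and library, with no scaling across libraries stated. FPKM summed over all genes came to 331189 to 338098 in the PELI2-CKO-labelled libraries and 309301 to 323155 in WT, without overlap. The main fit used the values unscaled, and rescaling to a common total moved the median log2 fold change of all tested genes by -0.06. Per the submitters' processing notes the build was GRCm38.p6, and RSEM 1.2.12, HISAT2 2.0.4, DESeq2 1.4.5 and Bowtie2 2.2.5 are listed without roles. No count model was fitted, since FPKM are normalized. Depth came from genes with 1 transcript, whose FPKM times length give whole reads within 0.03 reads for 99.3% to 99.5% of values under 6 reads.

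A gene entered the test if 3 or more libraries reached 1 FPKM. The scale was log2(FPKM + 1), a scale that understates changes of low genes, and the tool limma 3.58.1 in R 4.3.3 (eBayes with trend, two-sided, Benjamini-Hochberg, adjusted p under 0.05). The fit was tested on simulated data. Members and lists were chosen with earlier results of these data known. Named were all members, up to 5 genes per pathway list by smallest p, direct ligands and partners, up to 4 marker genes per list by level, and the 3 genes closest in profile to each of the 3 widest-ranging members. Some genes that this rule names are not reported here. Alternatives were other pseudocounts, filters, scalings, weights and covariates, a replicate block, and each library left out.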

Additional observations from a re-analysis of the deposited data

How the results depend on the processing

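None of the 9 genes passed the adjusted threshold under any of 18 alternatives. S1pr1 kept its direction in all 18, from -0.44 rescaled to a common total to -0.05 with the neutrophil covariate (limma, adjusted p between 0.125 and 0.966). Centring on the B lineage list turned the sign of Ccr7 (0.23), Cnr2 (0.13), Cxcr4 (0.17), Itga4 (0.15) and S1pr4 (0.18). These changes follow from the centring itself, which takes the group difference of that list's mean, -0.28 (log2), from every gene. The neutrophil covariate turned Cxcr4 (0.42), Cxcr5 (-0.54), Gpr183 (-0.69) and S1pr4 (0.03). Rescaling to a common total turned Cxcr5 (-0.01) and Klf2 (-0.02), quantile normalization turned Klf2 (-0.02), and library weights turned Cxcr5 (-0.03). The cause was not tested for the covariate and the weights. With 1 library left out, values ran from -0.21 to 0.04 for Cxcr4, -0.10 to 0.14 for Cxcr5, -0.12 to 0.28 for Gpr183 and -0.12 to 0.02 for Ccr7.

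The number of genes passing over the whole table was 3. It was 1 with a filter of 5 FPKM, 1 with the neutrophil covariate, 6 without a trend, 3446 (3434 higher, 12 lower) when centred on the B lineage list (39 of them in the wider pathway lists, all higher, where no other alternative gave any), and 1 to 13 with 1 library left out, the highest without PELI2_knockout replicate 3. With the replicate number as a block it was 4, and no member passed (S1pr1 -0.36). The numbers were not taken to pair the samples, since nothing in the labels says that they do. Deviations of same-numbered libraries correlated at 0.10, 0.04 and 0.09, each the highest for its library, which does not settle whether the samples were paired. Centring moved the medians of the 6 pathway lists to between 0.20 and 0.54, which turned those of the S1P pathway (0.24) and the regulators (0.20), and the neutrophil covariate turned those of integrins (-0.04), signalling (-0.04) and oxysterol genes (-0.03). Rescaling to a common total moved the medians of the regulators to -0.15 and of the S1P pathway to -0.11. Depth limits Cxcr5 and Gpr183 most, since the shortest coding transcripts of these genes would leave about 100 and 50 reads at the lowest.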
